A study of Mus musculus with 8 samples.

Results

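H3K27 acetylation after depolarisation was compared between mouse neuronal cultures titled MGE and cultures titled CTX, with 2 KCl libraries of each. These 4 libraries were chosen by their titles from the 8 libraries of the study, and the other 4 came from unstimulated cultures. All neurons were from C57/BL6 mice and grew in primary culture. Activity was blocked from day 6 in vitro to the next day in every culture, with tetrodotoxin (1 µM) against sodium channels and D-AP5 (100 µM) against NMDA receptors. On day 7 the KCl cultures received 55 mM KCl for 2 h, and the unstimulated cultures received none. Embryonic day 14 stands in the CTX titles, whereas the source field gives embryonic day 16 for both kinds of culture. The cell type field calls the MGE libraries cortical neurons as well, so the cultures are named here by their titles. The labels number biological replicates but do not say whether these were separate dissections, so p-values cover only the spread among these libraries, part of which may be technical.

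The medial ganglionic eminence (MGE) is a ventral progenitor zone of the embryonic forebrain. It produces cortical interneurons that use GABA, among them the somatostatin and parvalbumin classes, under transcription factors such as NKX2-1 and LHX6. The dorsal cortex (CTX) instead produces glutamatergic projection neurons under factors such as EMX1, NEUROD2, NEUROD6 and TBR1, and later glia. Acetylation of lysine 27 on histone H3 marks active promoters and enhancers, and enhancers carry much of the difference between cell types. Depolarisation with KCl opens voltage-gated calcium channels and induces immediate early genes such as Fos and Npas4.

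The deposited lists held 36033 and 49628 peaks for the MGE KCl libraries and 45055 and 66823 for the CTX KCl libraries on chromosomes 1 to 19 and X. They covered 21.5 and 32.0 Mb in MGE and 28.5 and 44.7 Mb in CTX. Each list was therefore shortened to the called bases of the smallest, the MGE KCl replicate 1 list, by keeping the peaks with the highest -log10 p. This kept 100% and 67.0% of the called bases in MGE and 75.5% and 48.0% in CTX. The lists remained unlike in shape, with median peak widths of 491 and 713 bp in MGE and 628 and 913 bp in CTX. A base outside the list was not called at this depth of list, which is not a measurement of absent acetylation. Called length also does not separate fewer cells of a type from less signal per cell in such bulk cultures.

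To show lineage-restricted sequence, 10 promoters called in both libraries of a culture and in neither of the other are printed. Each line gives the 200 bases before a transcript start, 5' to 3' on the gene's strand, from RefSeq's GRCm38.p6 promoter table, whose coordinates are those of mm10. Capitals mark matches, on either strand, to short motifs that were searched for: the homeodomain core TAATTA, the E-boxes CAGATG and CAGCTG, the AP-1 site TGANTCA, the cyclic AMP response element TGACGTCA, the nuclear factor I core TTGGC and the Sp1 box GGGCGG. A match is a description of the letters and not a bound site. Called here means at least 150 of the 300 bases around the start. Among the KCl libraries, the first set was called only in MGE, over 182 bases or more, with folds from 1.61 at Gad2 to 3.47 at Kcnc2. Unstimulated libraries do not enter this class, and the Gad2 window was called over 300 bases in both unstimulated MGE libraries too. Gad2 encodes a GABA-synthesising enzyme (chr2:22622127-22622326, plus strand), Lhx6 the MGE transcription factor (chr2:36104534-36104733, minus strand) and Kcnc2 a fast potassium channel of interneurons (chr10:112270921-112271120, plus strand). Tox2 encodes an HMG-box factor (chr2:163203986-163204185, plus strand), and the last is 1 of 6 listed starts of Sox6, a transcription factor of MGE interneurons (chr7:116031048-116031247, minus strand).
Gad2: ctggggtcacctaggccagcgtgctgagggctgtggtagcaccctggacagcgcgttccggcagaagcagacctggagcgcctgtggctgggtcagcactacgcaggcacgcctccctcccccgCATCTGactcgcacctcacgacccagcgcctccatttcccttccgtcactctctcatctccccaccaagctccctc
Lhx6: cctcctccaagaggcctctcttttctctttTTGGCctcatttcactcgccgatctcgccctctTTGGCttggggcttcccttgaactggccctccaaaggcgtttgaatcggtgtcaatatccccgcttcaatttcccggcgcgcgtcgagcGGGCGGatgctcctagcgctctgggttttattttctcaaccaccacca
Kcnc2: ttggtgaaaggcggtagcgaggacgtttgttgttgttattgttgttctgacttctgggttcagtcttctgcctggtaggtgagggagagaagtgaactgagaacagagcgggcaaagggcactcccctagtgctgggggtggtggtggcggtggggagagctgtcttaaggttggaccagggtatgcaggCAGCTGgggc
Tox2: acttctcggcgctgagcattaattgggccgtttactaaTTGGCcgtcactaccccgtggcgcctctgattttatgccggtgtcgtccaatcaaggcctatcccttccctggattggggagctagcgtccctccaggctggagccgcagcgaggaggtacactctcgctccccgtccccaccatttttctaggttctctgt
Sox6, MGE-only start: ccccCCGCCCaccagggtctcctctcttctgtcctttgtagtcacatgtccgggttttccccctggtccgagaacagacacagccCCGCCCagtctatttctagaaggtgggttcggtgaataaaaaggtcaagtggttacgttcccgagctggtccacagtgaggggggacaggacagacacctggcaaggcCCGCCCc

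Among the KCl libraries, the second set was called only in CTX, over 295 bases or more, with folds from 2.48 at Neurod6 to 3.11 at Sox6. In MGE replicate 1, 9 bases of the Slc1a3 window were called. It opens with a start of Sox6 that lies inside the gene, downstream of the start above (chr7:115824711-115824910, minus strand). Neurod6 (chr6:55681264-55681463, minus strand) and Emx1 (chr6:85187731-85187930, plus strand) encode transcription factors of projection neurons. Slc1a3 encodes the glial glutamate transporter GLAST (chr15:8710808-8711007, minus strand), and Arpp21 a cyclic AMP-regulated phosphoprotein (chr9:112188348-112188547, minus strand). Both Sox6 starts and the other promoters were chosen for display after their values were seen.
Sox6, CTX-only start: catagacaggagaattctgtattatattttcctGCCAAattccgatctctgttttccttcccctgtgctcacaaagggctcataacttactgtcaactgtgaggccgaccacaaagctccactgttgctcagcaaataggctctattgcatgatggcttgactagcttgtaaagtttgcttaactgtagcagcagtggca
Neurod6: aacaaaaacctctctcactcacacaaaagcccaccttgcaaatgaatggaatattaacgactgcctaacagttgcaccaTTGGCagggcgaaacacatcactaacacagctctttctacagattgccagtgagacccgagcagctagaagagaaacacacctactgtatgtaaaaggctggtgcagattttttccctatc
Emx1: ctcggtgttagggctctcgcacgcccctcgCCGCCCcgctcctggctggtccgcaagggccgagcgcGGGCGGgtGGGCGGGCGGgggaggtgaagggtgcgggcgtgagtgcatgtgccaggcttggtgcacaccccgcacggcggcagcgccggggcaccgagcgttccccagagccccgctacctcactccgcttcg
Slc1a3: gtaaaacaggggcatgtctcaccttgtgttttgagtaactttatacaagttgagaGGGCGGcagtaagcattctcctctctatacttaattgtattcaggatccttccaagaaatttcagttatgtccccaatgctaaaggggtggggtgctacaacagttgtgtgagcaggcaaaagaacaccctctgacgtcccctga
Arpp21: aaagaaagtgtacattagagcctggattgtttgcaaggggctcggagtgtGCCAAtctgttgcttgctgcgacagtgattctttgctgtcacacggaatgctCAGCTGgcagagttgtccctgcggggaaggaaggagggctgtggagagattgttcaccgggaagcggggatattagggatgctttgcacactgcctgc

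The MGE and CTX lists shared fewer bases with each other than replicates of a culture shared. Of the bases called in either of 2 libraries, 60.8% were shared between the CTX replicates and 54.3% between the MGE replicates. Across cultures the 4 pairs shared 35.1% to 43.6%, so every cross-culture pair was below both replicate pairs. The genome was divided into 500 bp bins, and a bin was called where at least 50% of it lay in peaks. Of 77163 bins called in at least 1 of the 4 libraries, 19251 (24.9%) were called in all 4. Another 8164 bins (10.6%) were called in both MGE libraries and neither CTX library, and 8019 (10.4%) in both CTX libraries and neither MGE library. Bins called in a single library numbered 9214 and 6061 in MGE and 6929 and 7219 in CTX, in the same range as the restricted ones.

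Runs of at least 2 such bins gave 1393 MGE-only regions covering 1.55 Mb near 899 genes and 1375 CTX-only regions covering 1.54 Mb near 938 genes. Every list had been cut to the same called bases, which favours equal totals, so the near balance of restricted bins and regions is not a result. The lists as deposited gave 1007 MGE-only and 1861 CTX-only regions. Both kinds were short, with a median of 1000 bp and a maximum of 2500 bp. Their peaks were weaker than peaks in bins called in all 4 libraries: the median fold over background, the authors' value, was 3.27 and 3.19 in MGE-only regions against 4.19 and 4.15. In CTX-only regions it was 3.18 and 3.67 against 3.95 and 4.66. The whole shortened lists had medians of 3.55 and 3.70 in MGE and 3.53 and 4.33 in CTX, so restricted regions lay below the median fold of their own list. Bins called in all 4 libraries had to pass the cut in every list. The lower fold of restricted regions may therefore follow from how the classes were set. No region by region test was made with 2 libraries against 2.

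For each protein-coding gene the called length was summed over bins in its span or within 100 kb, each bin going to its nearest gene. A bin's gene is thus a neighbour and not a shown target. After a filter on a mean of at least 1 kb, 7281 genes were tested with limma on log2(kb + 0.5), and an adjusted p below 0.05 over all of them was called. Called length was higher in MGE for 447 genes (6.14%) and higher in CTX for 427 genes (5.86%). The median log2 difference, MGE minus CTX, was 1.25 for the former and -1.25 for the latter, beside -0.09 over all genes tested. The shares of 6.14% and 5.86% are the background for the counts of called list members below. Of the 447 genes, 288 held an MGE-only region, beside 796 of all 7281 tested, and of the 427 genes, 265 held a CTX-only region, beside 771 of all tested. The regions come from the same bins as the gene lengths, so these counts are a description. Genes whose groups did not overlap and differed by at least 1 on the log2 scale numbered 475 (6.52%) above in MGE and 440 (6.04%) above in CTX. No base was called in either CTX library at 32 of the genes higher in MGE, nor in either MGE library at 35 of those higher in CTX. For such genes the fitted log2 difference depends on the pseudocount, so the called lengths are given below without it, and their adjusted p comes from the same fit. Both libraries of the culture without a called base stood at 0 kb and showed no spread. The adjusted p of these genes does not measure replicate spread in that culture and may be too small.

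These counts rested on all 4 libraries and on the equal number of bases, whereas most directions were kept with the lists as deposited or ranked by fold. Limma called 256 and 70 genes (higher in MGE and in CTX) without CTX replicate 1, 141 and 45 without CTX replicate 2, and 0 and 0 without either MGE replicate, where 1677 and 2176 genes had an unadjusted p below 0.05. No gene was called with the lists as deposited (1662 genes with an unadjusted p below 0.05) or with peaks ranked by fold (1267 genes). The share of calls that were higher in MGE was 51.1%, and 34.7% with equal numbers of peaks. Of the called genes that could be tested, 841 of 874 kept their direction with the lists as deposited and 752 of 794 when ranked by fold.

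**Figure D1:**
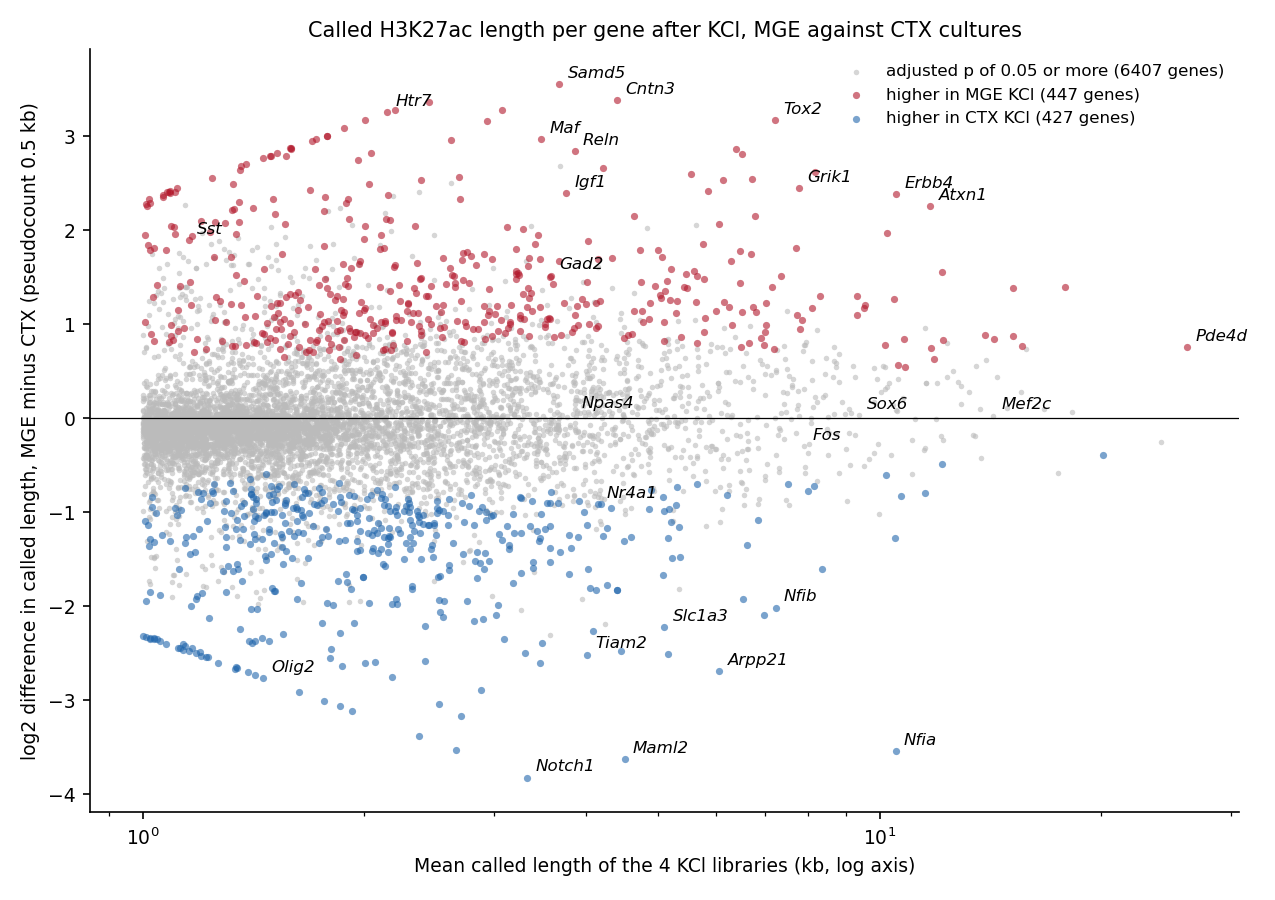
Mean called length over the 4 KCl libraries (kb, log axis) against the log2 difference in called length, MGE minus CTX, for 7281 genes, 1 point each. The 447 genes higher in MGE and 427 higher in CTX spread to about equal distances from 0, with Notch1, Maml2 and Nfia lowest and Samd5 and Cntn3 highest, while Sox6, Fos and Npas4 lie near 0.

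The 2 founder factors of the MGE were called there only: Nkx2-1 had 1.62 and 0.794 kb in the MGE libraries and Lhx6 1.97 and 1.22 kb, with 0 kb in both CTX libraries for each. Both genes were below the filter and were not tested. The length at Lhx6 included the MGE-only region chr2:36104501-36106000, which holds the promoter shown above. Maf encodes a leucine zipper factor of MGE interneurons. Maf had 6.13 and 6.71 kb in MGE against 1.05 and 0 kb in CTX, a log2 difference of 2.97 ± 0.54 (SE, adjusted p = 0.0364). Its 4 MGE-only regions lay 39607 to 99107 bp outside the gene. The libraries of the 2 cultures did not overlap at Maf. Of the 14 MGE transcription factors listed, 6 were tested, 2 were higher in MGE and 0 higher in CTX, with a median log2 difference of 0.06 over the 6.

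Sox6 had nearly equal lengths, 9.20 and 9.77 kb in MGE and 8.70 and 9.83 kb in CTX, and was not called (adjusted p = 0.90). The positions nevertheless differed, with 2 MGE-only and 4 CTX-only regions at the gene. At the MGE-only start shown above, all 300 bases of the promoter window were called in both MGE libraries and 0 in both CTX libraries. At the CTX-only start, 300 bases were called in both CTX libraries and 0 in both MGE libraries, within the CTX-only region chr7:115824501-115825500. The unstimulated libraries had the same calls at both starts. Sox6 acts in MGE interneurons and also in cortical progenitors and oligodendrocyte precursors.

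Among genes of GABA synthesis, transport and release, Gad2 alone of 6 tested was called (median log2 difference 0.08). It had 4.83 and 6.27 kb in MGE against 1.91 and 1.33 kb in CTX (1.52 ± 0.23, adjusted p = 0.0271). The region chr2:22622001-22623500 over its start was called over 1398 and 1500 bp in the MGE libraries and 0 bp in the CTX libraries. Gad1, the other GABA-synthesising enzyme, had 1.84 and 1.58 kb in MGE and 1.98 and 2.17 kb in CTX. Slc32a1, the vesicular GABA transporter, had 2.12 and 3.24 kb against 2.78 and 1.95 kb, so its libraries overlapped. Gad1 and Slc32a1 were thus called in every library of both cultures.

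The Dlx homeobox genes, which specify GABAergic neurons from all ganglionic eminences, were also called in both cultures. Dlx1 had 1.10 and 1.76 kb in MGE and 1.81 and 0.851 kb in CTX, Dlx5 2.00 and 1.80 kb against 1.502 and 1.44 kb, and Dlx6 2.95 and 1.01 kb against 0.888 and 1.99 kb. None of these 3 was called. Dlx2 was higher in CTX, with 3.92 to 4.01 kb against 1.72 to 1.79 kb (-0.99 ± 0.15, adjusted p = 0.0277). That call came from bins far from the gene, including the CTX-only region chr2:71624501-71625500, 77747 bp away. With genes up to 50 kb away the difference was 0.33, and with bins within 5 kb it was 0.056.

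Genes of mature MGE interneuron classes had the largest share of called genes in 1 direction among the 21 lists, with 8 of 12 tested genes higher in MGE and 0 higher in CTX (21 genes matched, median log2 difference 1.76, and 0.81 to 2.16 over 20 alternative settings). Of the 8, Gad2, Erbb4, Sst, Crhbp and Tac1 are each counted in 1 other list as well. Erbb4, the neuregulin receptor of interneurons, had 20.2 and 15.6 kb in MGE against 4.29 and 2.05 kb in CTX (2.39 ± 0.34, adjusted p = 0.0250) and 4 MGE-only regions. Crhbp, which encodes a binding protein for corticotropin-releasing hormone, had 2.55 and 2.98 kb in MGE and 0 kb in CTX (adjusted p = 0.0129). The parathyroid hormone-like gene Pthlh had 4.03 and 3.54 kb against 0.415 and 0.558 kb (2.12 ± 0.15, adjusted p = 0.0114). At Kcnc2 the lengths were 5.76 and 4.80 kb against 1.22 and 1.53 kb (1.62 ± 0.19, adjusted p = 0.0189). The neuropeptide genes Tac1 and Sst were called more weakly. Tac1 had 2.91 and 2.62 kb against 0.715 and 0 kb (adjusted p = 0.0487), and Sst 2.24 and 1.92 kb against 0.459 and 0 kb (adjusted p = 0.0418). Btbd11 was the eighth member besides Gad2, at 3.68 and 2.70 kb against 1.24 and 1.20 kb. Pvalb, the marker of the parvalbumin class, had 0.133 and 0.364 kb in MGE and 0.16 and 0.224 kb in CTX, and Calb1 had 0 kb in all 4.

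Migrating interneurons follow the chemokine CXCL12 and neuregulins. Of 15 tested receptors and ligands of migration, Erbb4 and Cxcr4 were higher in MGE and 0 were higher in CTX (median log2 difference 0.11). The shares over all genes tested were 6.14% and 5.86%. Cxcr4, the CXCL12 receptor, had 3.02 and 2.66 kb in MGE against 0.697 and 0.686 kb in CTX (1.49 ± 0.14, adjusted p = 0.0133), but -0.17 where only peaks with a -log10 q of at least 5 were kept. Semaphorin 3A and neuregulin 1, which are made by surrounding cells, had longer lengths in CTX without passing the test. Sema3a had 1.78 and 1.98 kb in MGE against 3.81 and 3.25 kb (adjusted p = 0.0529), and Nrg1 1.94 and 3.07 kb against 4.78 and 4.90 kb (adjusted p = 0.0836).

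**Figure D2:**
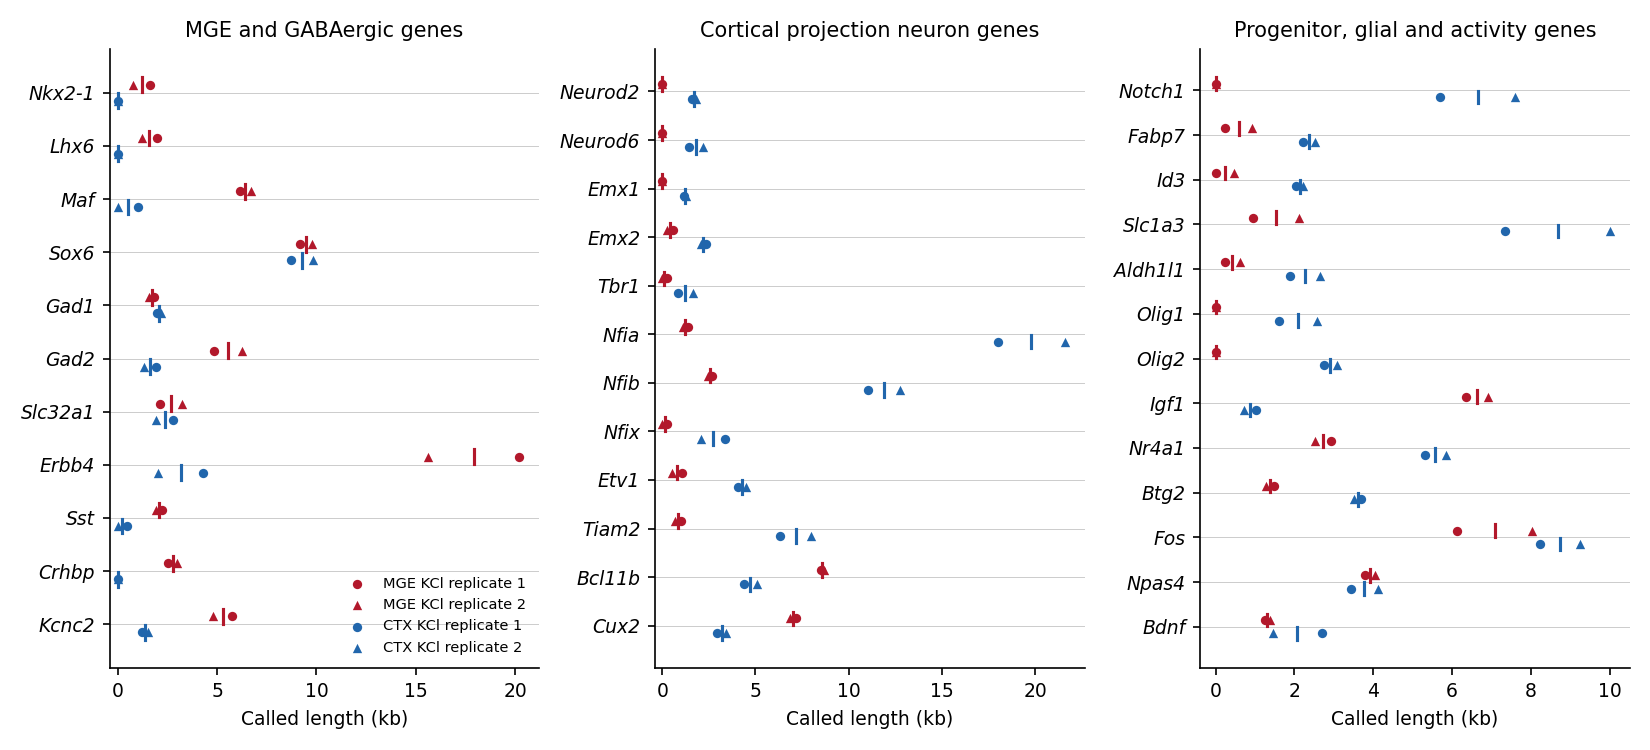
Called length in kb (x axis) of 36 genes in the 4 KCl libraries, with circles for replicate 1, triangles for replicate 2 and bars for the mean of 2 libraries. MGE libraries are to the right of CTX libraries at Maf, Gad2, Erbb4 and Igf1 and to the left at Nfia, Nfib, Notch1 and Slc1a3, while Sox6, Gad1 and Npas4 overlap or nearly do.

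Cortical projection neuron factors were called in CTX where the MGE libraries had nothing, but at short lengths. Neurod2 had 1.59 and 1.82 kb in CTX, Neurod6 1.44 and 2.16 kb and Emx1 1.15 and 1.25 kb, each with 0 kb in both MGE libraries. All 3 are basic helix-loop-helix or homeobox genes of the dorsal lineage, and all were below the filter. CTX-only regions lay over the starts of Neurod6, at chr6:55681001-55682000, and Emx1, at chr6:85187501-85188500. The Neurod2 region, chr11:98328501-98329500, lay in the gene 145 bp from its start, and 0 bases of the start window itself were called. Tbr1, a deep-layer factor, had 0.821 and 1.65 kb in CTX against 0.24 and 0 kb in MGE. Fezf2, a subcerebral neuron factor, had 0.772 and 0 kb against 0 and 0.255 kb, so its libraries overlapped. Neurod1 and the vesicular glutamate transporter gene Slc17a7 had 0 kb in all 4 libraries. Slc17a6, the other vesicular transporter, did not separate the cultures (0.656 and 1.67 kb in MGE, 0.919 and 1.26 kb in CTX).

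The nuclear factor I genes Nfia, Nfib and Nfix, which act in cortical progenitors, neurons and glia, were all higher in CTX. Nfia had 18.009 and 21.6 kb in CTX against 1.37 and 1.10 kb in MGE (-3.55 ± 0.18, adjusted p = 0.00991), with 8 CTX-only regions and 27 CTX-only bins, the most of any gene. Nfib had 11.03 and 12.8 kb against 2.68 and 2.44 kb (-2.02 ± 0.16, adjusted p = 0.0118), although it read 0.38 when peaks were ranked by fold. Nfix had 3.35 and 2.10 kb against 0.244 and 0 kb (adjusted p = 0.0228). The ETS factor gene Etv1 had 4.07 and 4.48 kb against 1.05 and 0.503 kb (-1.94 ± 0.25, adjusted p = 0.0209). Emx2, a homeobox gene of the dorsal telencephalon, had 2.32 and 2.06 kb against 0.559 and 0.275 kb (-1.57 ± 0.21, adjusted p = 0.0231).

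In all, 5 of 22 tested projection neuron factors were higher in CTX and 2 were higher in MGE, with a median log2 difference of -0.55 that ran from -1.35 to 0.28 over 20 alternative settings. The 2 were Bcl11b and Cux2, which are layer markers of projection neurons and are also expressed in interneurons. Bcl11b had 8.52 and 8.66 kb in MGE against 4.36 and 5.08 kb in CTX (0.80 ± 0.15, adjusted p = 0.0388), but -0.19 with the lists as deposited and -0.000852 with a -log10 q of at least 5. Cux2 had 7.16 and 6.84 kb against 2.96 and 3.44 kb (1.02 ± 0.16, adjusted p = 0.0290). Mef2c, an activity-regulated factor of both lineages, had 13.7 and 15.0 kb in MGE and 14.004 and 14.2 kb in CTX.

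Of 14 tested effectors of projection neurons, Tiam2, Ptn and Slc1a1 were higher in CTX and Kcnh7 was higher in MGE (median log2 difference -0.28). Over all genes tested, 5.86% were higher in CTX and 6.14% in MGE. Tiam2, a Rac exchange factor, had 6.34 and 7.995 kb in CTX against 1.01 and 0.682 kb in MGE (-2.51 ± 0.21, adjusted p = 0.0129). The growth factor gene Ptn had 6.29 and 6.95 kb against 0.893 and 2.38 kb (-1.83 ± 0.37, adjusted p = 0.0449), and the neuronal glutamate transporter gene Slc1a1 3.48 and 3.36 kb against 1.57 and 0.913 kb (-1.20 ± 0.23, adjusted p = 0.0398). Kcnh7, an ERG-type potassium channel gene, had 13.8 and 12.8 kb in MGE against 7.02 and 4.51 kb (1.17 ± 0.22, adjusted p = 0.0398). The effector list thus held genes on both sides.

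Some progenitor and glial markers were higher in CTX. The summed length of 20 progenitor genes was 30.3 to 31.1 kb in CTX and 10.4 to 14.8 kb in MGE. Notch1, the receptor that maintains progenitors, had 5.70 and 7.61 kb in CTX and 0 kb in MGE (adjusted p = 0.00991), with 5 CTX-only regions. Id3, an inhibitor of neuronal differentiation factors, had 2.05 and 2.22 kb against 0 and 0.457 kb (adjusted p = 0.0393). These were the 2 called genes of 7 tested (median log2 difference -1.26). The cycling genes Mki67 and Top2a were called at 0.869 and 0.913 kb and at 0.573 and 1.25 kb in CTX, with 0 kb in MGE, and Fabp7, a radial glia gene, at 2.22 and 2.51 kb against 0.24 and 0.927 kb (adjusted p = 0.0549).

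The summed length of 15 oligodendrocyte lineage genes was 19.1 to 19.45 kb in CTX and 5.59 to 7.21 kb in MGE. Olig1, Olig2, Sox10 and Cspg4, the genes of oligodendrocyte precursors, were the 4 called of 8 tested, and 0 were higher in MGE. Olig2 had 2.75 and 3.08 kb in CTX (adjusted p = 0.0118) and Olig1 1.62 and 2.57 kb (adjusted p = 0.0277), each with 0 kb in both MGE libraries. The myelin gene Mag had 0 kb in all 4 libraries. For 15 astrocyte genes the sums were 22.8 to 26.0 kb in CTX and 11.2 kb in both MGE libraries. Slc1a3 had 7.34 and 10.0 kb against 0.939 and 2.12 kb (-2.22 ± 0.35, adjusted p = 0.0277), and Aldh1l1, an astrocyte enzyme of folate metabolism, 1.90 and 2.65 kb against 0.24 and 0.609 kb (-1.60 ± 0.27, adjusted p = 0.0312). These were the 2 called of 6 tested. Aqp4 went the other way with 1.83 and 1.17 kb in MGE and 0 kb in CTX, and Gja1, S100b and Aldoc had 0 kb in all 4. The part of glial and progenitor cells in the CTX-side differences, the nuclear factor I genes included, was not tested.

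Vascular and immune markers were mostly uncalled. A called base in at least 1 of the 4 libraries was present at 5 of 15 microglia genes and 8 of 19 endothelial and mural genes. Over all 21631 genes this was so at 13860. Of 15 microglia genes 10 had 0 kb in all 4 libraries, including Cx3cr1, Aif1, Tmem119 and P2ry12, and the sums were 2.86 to 3.34 kb in CTX and 2.99 to 4.19 kb in MGE. Of 19 endothelial and mural genes 11 had 0 kb throughout, among them Cldn5, Kdr and Tie1. The list summed to 9.04 to 9.65 kb in CTX and 5.045 to 5.14 kb in MGE, with a median log2 difference of -0.58 over 4 tested. The only called gene was Cspg4, which oligodendrocyte precursors also express. Neighbouring interneuron sources were less clear. Genes of the caudal eminence summed to 25.8 to 30.5 kb in CTX and 17.4 to 22.9 kb in MGE. Sp8, Nr2f2, Htr3a and Calb2, which mark that source, had 0.792 to 1.98 kb in the CTX libraries and at most 0.365 kb in the MGE libraries, all below the filter. Reln, a secreted glycoprotein gene that MGE-derived somatostatin neurons also express, was the single called gene of 5 tested, with 8.61 and 5.69 kb in MGE against 0.767 and 0.361 kb (2.85 ± 0.29, adjusted p = 0.0163). Of 10 tested genes of the lateral eminence and striatum, Tac1, Bcl11b and Sp9 were higher in MGE and 0 in CTX, while Drd2, Adora2a and Penk had 0 kb in all 4.

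**Figure D3:**
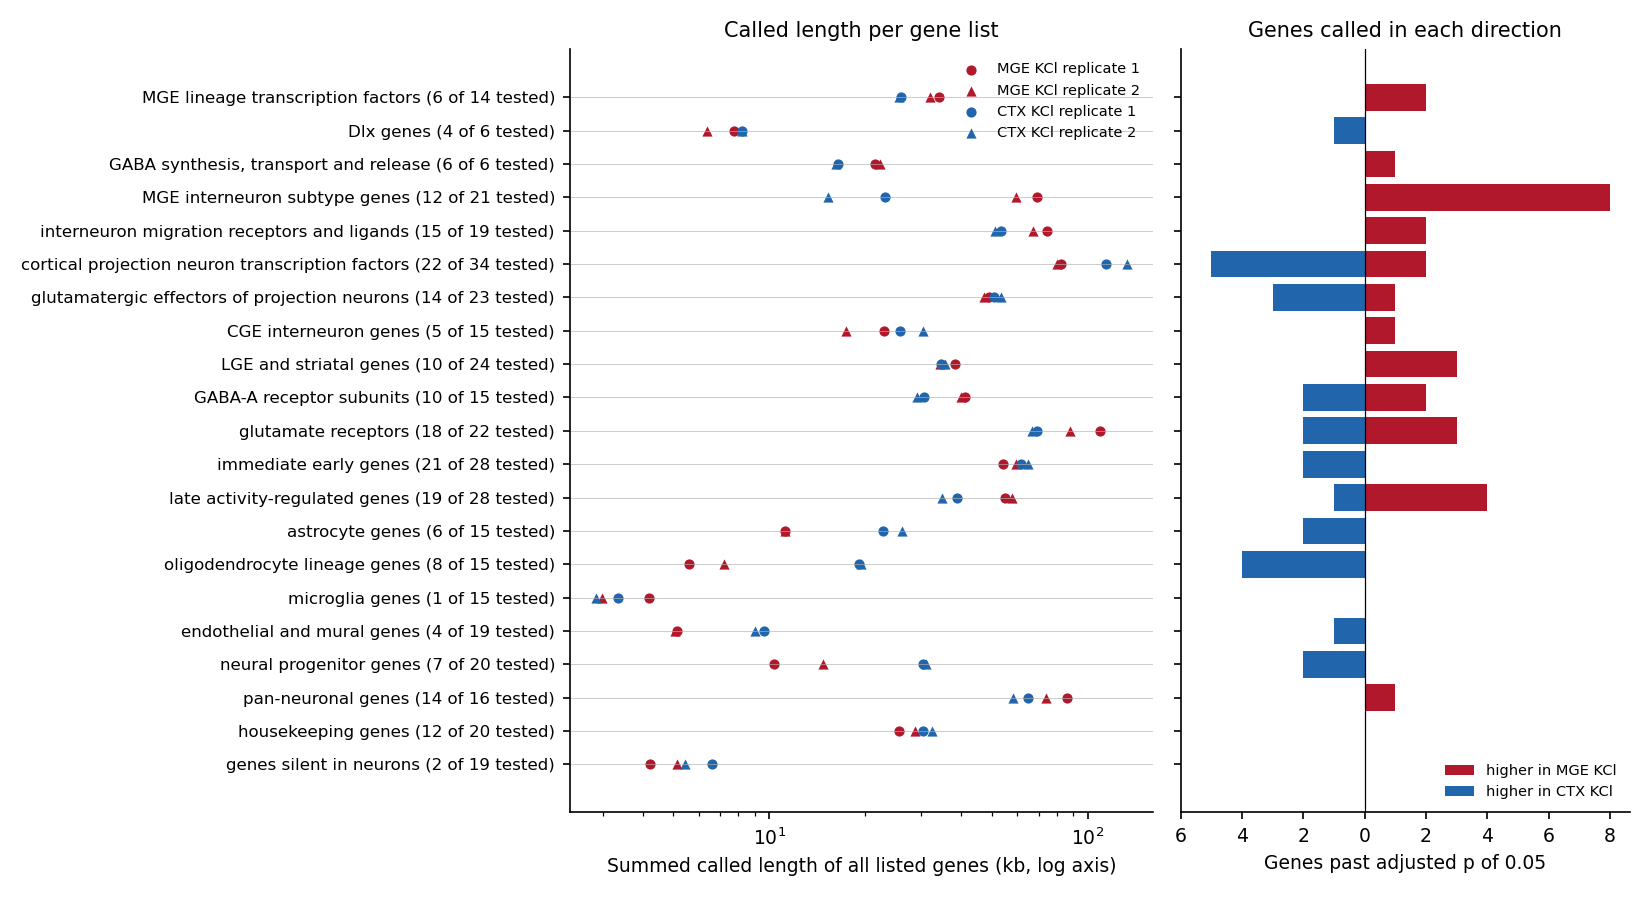
Left, summed called length of the genes of 21 lists in each KCl library (kb, log axis, 1 point a library). Right, how many tested genes passed an adjusted p of 0.05 in each direction, with 8 higher in MGE for interneuron subtype genes and 4 higher in CTX for oligodendrocyte lineage genes.

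Lists of general genes were read in the same way. Of 12 tested housekeeping genes 0 were called in either direction, beside 6.14% and 5.86% of all genes tested (median log2 difference -0.14). The summed lengths of the list were 25.5 to 28.6 kb in MGE and 30.5 to 32.3 kb in CTX. Both CTX libraries exceeded both MGE libraries at 9 of the 20 listed genes, with 1 the reverse. Over all 7281 genes tested, these counts were 2590 and 1680. A list this small cannot serve as a reference of no difference. Pan-neuronal genes summed to 73.7 to 86.0 kb in MGE and 58.0 to 65.1 kb in CTX. Among 14 tested, only Celf4, a neuronal RNA-binding protein gene, was called (16.2 and 13.5 kb against 8.95 and 8.27 kb, 0.75 ± 0.13, adjusted p = 0.0337), and it read -0.084 with the lists as deposited. Map2, the dendritic microtubule gene, had 10.5 and 11.7 kb in MGE and 12.2 and 10.2 kb in CTX. Summed lengths thus differed between the cultures at pan-neuronal genes too, and the part of this in the interneuron lists was not tested.

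Receptor subunits set how a neuron responds to its transmitters. Among GABA-A receptor subunits, 2 of 10 tested were higher in MGE and 2 higher in CTX, beside 6.14% and 5.86% of all genes tested. The median log2 difference of the 10 was 0.26. The gamma subunit gene Gabrg3 had 10.5 and 9.92 kb in MGE against 1.78 and 1.25 kb in CTX (2.42 ± 0.20, adjusted p = 0.0118), and Gabrg1 4.80 and 5.86 kb against 1.01 and 0.823 kb (2.04 ± 0.18, adjusted p = 0.0129). Gabrb1, a beta subunit gene, had 5.62 and 6.45 kb in MGE against 10.6 and 9.90 kb in CTX (-0.72 ± 0.14, adjusted p = 0.0409). Its overlapping neighbour Gabra4 had 1.34 and 1.17 kb against 2.29 and 2.94 kb (-0.82 ± 0.17, adjusted p = 0.0471).

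Of 18 tested glutamate receptor genes, 3 were higher in MGE and 2 higher in CTX, beside 6.14% and 5.86% of all genes tested. The median log2 difference of the 18 was 0.42. The kainate receptor gene Grik1 had 14.9 and 12.1 kb in MGE against 1.93 and 2.17 kb in CTX (2.45 ± 0.18, adjusted p = 0.0114), and Grik2 10.2 and 8.75 kb against 4.54 and 3.62 kb (1.13 ± 0.18, adjusted p = 0.0287). Gria1, an AMPA receptor gene, had 10.1 and 6.18 kb against 2.49 and 2.10 kb (1.59 ± 0.27, adjusted p = 0.0313) and read -0.35 when peaks were ranked by fold. The metabotropic receptor genes Grm8 and Grm3 were higher in CTX. Grm8 had 0.430 and 0 kb in MGE against 2.39 and 3.39 kb (adjusted p = 0.0277), and Grm3, which astrocytes also express, 0.313 and 1.08 kb against 4.88 and 3.96 kb (-2.11 ± 0.35, adjusted p = 0.0300). The NMDA receptor genes Grin1 and Grin2b had overlapping lengths.

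Of 21 tested immediate early genes, 0 were higher in MGE and 2, Nr4a1 and Btg2, were higher in CTX, beside 6.14% and 5.86% of all genes tested, with a median log2 difference of -0.17 beside -0.09 over all genes. Fos had 6.13 and 8.02 kb in MGE and 8.22 and 9.24 kb in CTX (-0.29 ± 0.18, adjusted p = 0.361). Npas4, a neuron-specific early factor, had 3.78 and 4.03 kb against 3.43 and 4.12 kb (0.05 ± 0.18, adjusted p = 0.90). The orphan receptor gene Nr4a1 had 2.92 and 2.53 kb in MGE against 5.30 and 5.83 kb in CTX (-0.91 ± 0.17, adjusted p = 0.0381). Btg2, an antiproliferative gene also active in neural progenitors, had 1.47 and 1.27 kb against 3.69 and 3.52 kb (-1.14 ± 0.16, adjusted p = 0.0231). In unstimulated libraries Fos had 2.38 to 3.30 kb in the 4 libraries and Nr4a1 0.646 and 0.593 kb in MGE and 1.87 and 0.727 kb in CTX, below every KCl library. Btg2 had 0.735 and 0.609 kb in unstimulated MGE and 2.80 and 3.44 kb in unstimulated CTX. Without KCl, both CTX libraries thus exceeded both MGE libraries at Btg2 and, narrowly, at Nr4a1.

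Of 19 tested late activity-regulated genes, 4 were higher in MGE and 1, Spry2, was higher in CTX (median log2 difference 0.09). The shares over all genes tested were 6.14% and 5.86%. Igf1, a secreted growth factor gene, had 6.36 and 6.92 kb in MGE against 1.02 and 0.707 kb in CTX (2.40 ± 0.19, adjusted p = 0.0118). The MGE-only region chr10:87858501-87861000, at 5 bins among the longest, lay 111 bp from a listed start and was called over 2136 and 2500 bp in the MGE KCl libraries. In unstimulated MGE libraries 300 and 153 bp of it were called, and 0 bp in any CTX library. Rasgrp1, an exchange factor for Ras, had 7.25 and 5.98 kb against 1.28 and 1.57 kb (1.88 ± 0.19, adjusted p = 0.0162), and the peptide system genes Sst and Crhbp were the other 2. Spry2, a feedback inhibitor of growth factor signalling, had 2.52 and 2.46 kb in MGE against 4.73 and 4.60 kb (-0.79 ± 0.16, adjusted p = 0.0433) but 0.95 when peaks were ranked by fold. Bdnf, a neurotrophin gene induced in projection neurons, had 1.24 and 1.39 kb in MGE and 2.70 and 1.44 kb in CTX (adjusted p = 0.343).

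The genes with the largest differences were mostly outside these lists. On the MGE side the first 8, in an order that depends on the pseudocount, were Samd5, Cntn3, Kcnmb2, Rtn4rl1, Sdk1, Htr7, Topaz1 and Tox2. The contactin adhesion gene Cntn3 had 9.08 and 7.62 kb in MGE against 0.917 and 0 kb in CTX (adjusted p = 0.0269), and Samd5 7.92 and 6.45 kb against 0.344 and 0 kb (adjusted p = 0.0118). Tox2 had 13.3 kb in both MGE libraries against 1.57 and 0.634 kb (3.17 ± 0.32, adjusted p = 0.0162), with 3 MGE-only regions inside the gene. Htr7, a serotonin receptor gene, had 4.23 and 4.36 kb in MGE and 0 kb in CTX, and Kcnmb2, a subunit of calcium-activated potassium channels, 6.49 and 3.29 kb and 0 kb. Rtn4rl1, a Nogo receptor relative, had 4.96 and 3.84 kb in MGE and 0 kb in CTX. Pde4d, a cyclic AMP phosphodiesterase gene, held 24 MGE-only bins, the most of any gene, at 34.0 and 31.9 kb in MGE against 18.5 and 20.1 kb. Atxn1, a transcriptional regulator gene, held 22 (19.6 and 19.8 kb against 3.54 and 3.90 kb), and Grip1, a scaffold gene of AMPA receptors, 19 (18.9 and 17.5 kb against 9.08 and 10.2 kb). Pde4d and Grip1 also held 5 CTX-only bins each, and Atxn1 held 1.

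On the CTX side the first 8 were Notch1, Maml2, Nfia, Prokr2, Vxn, Sall1, Zcchc24 and Slc26a4. Maml2, a coactivator of Notch receptors, had 8.28 and 9.14 kb in CTX against 0 and 0.608 kb in MGE (adjusted p = 0.0178). Sall1, a zinc finger gene of neural progenitors, had 4.86 and 5.65 kb against 0.312 and 0 kb (adjusted p = 0.0121). Prokr2, a prokineticin receptor gene, had 4.52 and 6.12 kb in CTX, and Vxn, a neurogenesis gene, 4.14 and 5.35 kb, each with 0 kb in both MGE libraries. Besides Nfia, the most CTX-only bins lay at Celf2, with 24, and at Arpp21, with 17. Arpp21 had 10.6 and 11.1 kb in CTX against 1.28 and 1.23 kb (-2.69 ± 0.16, adjusted p = 0.0106). Celf2, an RNA-binding protein gene, had 20.2 and 21.7 kb against 16.3 and 11.7 kb and was not called (adjusted p = 0.0898), and it also held 7 MGE-only bins.

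Unstimulated libraries of the same cultures, which did not choose the regions or genes, showed the same division. Their lists were shortened to the same length, except MGE replicate 2, whose whole list covered 21.1 Mb. Of 3099 bins in MGE-only regions, 68.2% and 62.0% were called in the MGE unstimulated libraries and 9.58% and 6.84% in the CTX ones. Of 3089 bins in CTX-only regions, 65.7% and 72.3% were called in the CTX unstimulated libraries and 8.45% and 13.5% in the MGE ones. Every library of the matching culture was thus far above every library of the other. At 393 of the 447 genes higher in MGE (87.9%), both unstimulated MGE libraries exceeded both unstimulated CTX libraries, with 7 the reverse. At 364 of the 427 genes higher in CTX (85.2%) both CTX libraries exceeded both MGE libraries, with 6 the reverse. Over all genes tested these shares were 23.7% and 33.2%. Whether separate unstimulated and KCl libraries came from the same preparations is not given in the sources used here.

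**Figure D4:**
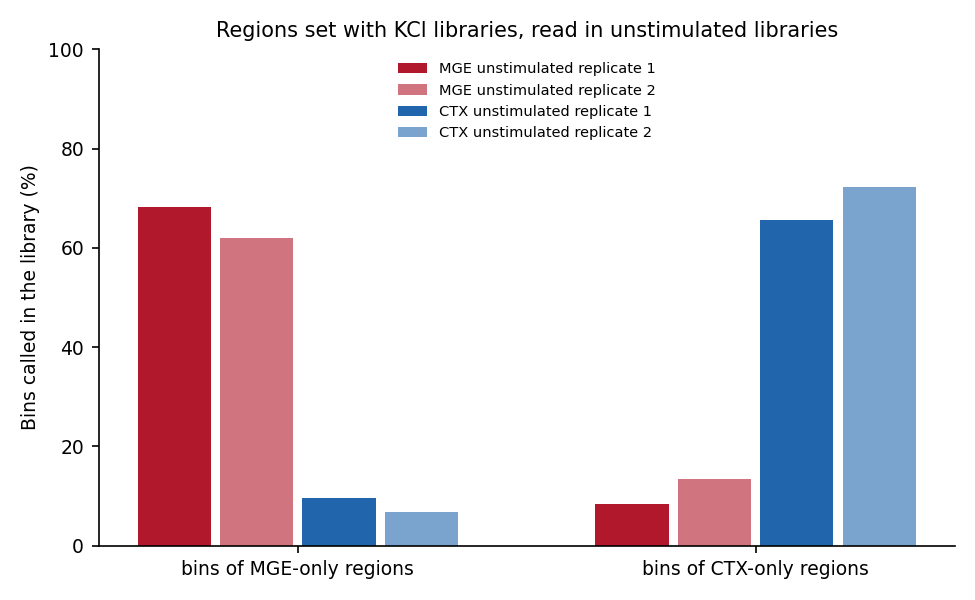
Share of bins of the MGE-only and CTX-only regions, set on KCl libraries, that were called in each of the 4 unstimulated libraries (bars, percent). Bars of the matching culture stand between 62.0% and 72.3% and those of the other culture between 6.84% and 13.5%.

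Named genes followed this with exceptions. Erbb4 had 17.3 and 16.6 kb in unstimulated MGE against 7.74 and 3.85 kb in CTX, and Nfia 1.44 and 2.26 kb against 13.4 and 18.4 kb. Maf, Gad2 and Tox2 also kept their side, with 6.61 and 5.81 kb against 0 and 0.416 kb, 4.90 and 5.17 kb against 2.25 and 3.19 kb, and 14.1 and 13.0 kb against 2.501 and 1.177 kb. Cxcr4 overlapped without KCl (4.75 and 5.11 kb in MGE, 5.26 and 1.92 kb in CTX), and Slc1a1 had 2.88 and 2.77 kb in MGE against 2.49 and 2.63 kb in CTX. Emx1, called over 926 and 917 bp of its region in the CTX KCl libraries, had 36 and 0 bp there in the CTX unstimulated ones. Differences between the states were not tested here.

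Lineage-restricted regions lay away from transcript starts. Distances were taken for regions whose nearest gene has a start in the promoter table, which covers 17274 of 21631 genes and none on chromosome 18. Regions with no gene within 100 kb were also left out. These were 20.1% of MGE-only regions, 16.8% of CTX-only regions and 1.98% of regions called in all 4 libraries, so the restricted classes lost more. Of 896 MGE-only regions with a distance, 69 (7.70%) came within 1 kb of a start, as did 162 of 916 CTX-only regions (17.7%) and 3578 of 4357 regions called in all 4 libraries (82.1%). Over 50 kb from a start were 46.0% of the MGE-only, 34.9% of the CTX-only and 6.77% of the common regions. The median distances of the restricted regions were 42.6 kb in MGE and 29.8 kb in CTX. Enhancers are typically found at such distances, but no assay of enhancer function was analysed here.

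**Figure D5:**
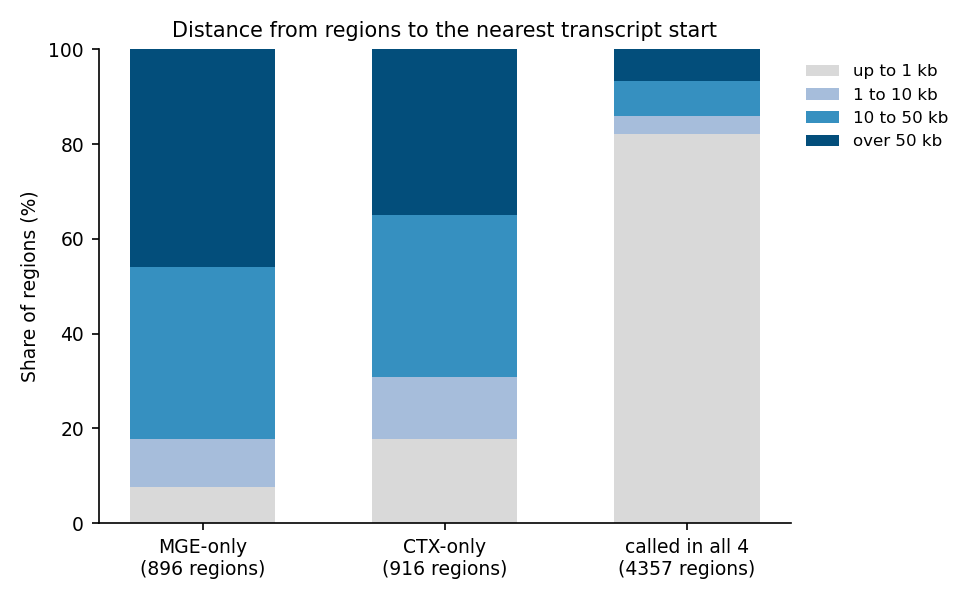
Share of regions (percent, stacked bars) by distance to the nearest transcript start, for 896 MGE-only, 916 CTX-only and 4357 regions called in all 4 KCl libraries. Regions within 1 kb make up 7.70%, 17.7% and 82.1%. Regions with no gene within 100 kb are left out.

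Promoter windows gave the same order. With at least 150 of 300 bases called, 140 of 21045 windows were MGE-only, 428 were CTX-only and 3350 were called in all 4 libraries. The libraries also differed in how much of their list lay on promoters, with 19.9% and 26.4% of windows called in MGE and 25.9% and 29.2% in CTX. The part of that difference in the excess of CTX-only promoters was not tested.

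The letters of these promoters were counted in the 250 bases before the start, after overlapping windows were dropped. GGGCGG was present in 53.8% of 132 MGE-only and 59.9% of 406 CTX-only promoters, against 56.8% of those called in all 4 libraries and 42.6% of all 19848. Median CpG counts were 11, 16.5 and 18 in these classes and 9 over all. The nuclear factor I core TTGGC was found in 32.6% of MGE-only, 45.6% of CTX-only, 39.8% of commonly called and 43.3% of all promoters. In the same order, CAGATG was in 13.6%, 9.85%, 8.48% and 12.4%, CAGCTG in 13.6%, 14.5%, 11.1% and 12.2%, and TGANTCA in 5.30%, 4.93%, 3.11% and 6.25%. TGACGTCA was in 2.27%, 2.22%, 4.03% and 1.89%. TAATTA was in 0 of 132 MGE-only promoters, 1.72% of CTX-only, 1.90% of commonly called and 4.34% of all. The promoters printed above show the same mixture: Emx1 had 4 Sp1 boxes, the MGE-only Sox6 start 3 and Lhx6 2 nuclear factor I cores, while the homeodomain core was in none of the 10 windows. The full palindromic nuclear factor I site, which contains TTGGC, was in 0 promoters of either class. These shares were not tested.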

How the data were processed

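The 8 deposited files are lists of H3K27ac peaks in broad-peak format, 1 per library, for which the submitters' processing notes name cutadapt 1.18, Bowtie2 2.3.3, MACS3 3.0.0a7, deepTools 3.4.3 and the mm10 build. Tool settings, and whether an input was used, were not given in the sources used here. Deposited per peak are a fold over background (a ratio), -log10 p and -log10 q (the p-value and q-value of the peak) and a score, which was not used. No read counts were analysed, so sequencing depth is unknown and no counting intervals are given.

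The 4 KCl lists were ranked by -log10 p and shortened to 21.4763 Mb each. All called bases in 500 bp bins were summed per protein-coding gene (21631 spans from RefSeq, GRCm38.p6), up to 100 kb away. The rule that at least 50% of a bin be called was used for bins and regions and not for these sums. Genes with a mean of at least 1 kb were tested on log2(kb + 0.5) with limma 3.58.1 (moderated test with an intensity trend, two-sided, Benjamini-Hochberg over 7281 genes) in R 4.3.3. An exact permutation test of 2 libraries against 2 cannot reach 0.05 for a single gene. On simulated data with 7281 genes, 90 of 100 changes of 1 on the log2 scale and 100 of 100 of 2 were recovered, with 11 false calls. The simulated noise was Gaussian and independent between genes and libraries, with a spread set by the mean alone. Peak lists that are cut at a rank need not vary in that way. These counts therefore do not give the power or the false calls of the test on the real lists.

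Genes were named by rule: the 8 largest called differences in each direction, the 3 genes with most restricted bins in each, a set list of markers, and up to 4 called members of each gene list. Some genes that this rule names are not reported here. Other genes in the text are list members, and those promoters and genes described as exceptions were chosen after their values were seen. The members, gene lists and settings were chosen with earlier results of these data known. Alternatives covered list length, ranking, bin calls, gene distance, pseudocount, filter, normalization and leaving out each library.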

Additional observations from a re-analysis of the deposited data

How the results depend on the processing

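Counts of genes higher in MGE and in CTX moved from 447 and 427 as follows. They were 0 and 0 with the lists as deposited, when ranked by fold and with a -log10 q of at least 5 (530 genes with an unadjusted p below 0.05 by limma, 664 of 713 called genes in the same direction), 30 and 29 at 60% of the bases, 226 and 207 with bins within 5 kb, and 51 and 95 with wholly called bins (34.9% higher in MGE). Equal numbers of peaks gave 241 and 453, a pseudocount of 0.1 kb gave 298 and 263, and bins with any called base gave 373 and 558 (40.1% higher in MGE). Leaving out 1 library gave 0 to 256 higher in MGE and 0 to 70 higher in CTX, where the culture with 1 library is assumed to vary like the other. The other settings stayed within 1.5 times. The cause was not tested, beyond the fewer libraries or bins that some settings leave.

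With the replicate number as a replicate block the counts were 362 and 332. The labels do not say that a number pairs libraries, and the deviations of same-numbered libraries correlated at 0.0848 over 7281 genes with only 2 pairs.

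MGE-only and CTX-only regions moved from 1393 and 1375 to 924 and 834 (ranked by fold), 5028 and 3526 (any called base), 195 and 449 (wholly called bins), 6458 and 6305 (single bins) and 46 and 50 (runs of at least 4 bins). They were 930 and 730 at 60% of the bases and 561 and 1176 with a -log10 q of at least 5. The lists as deposited gave 1007 and 1861, and equal numbers of peaks gave 1260 and 1791. Leaving out 1 library gave 1543 to 2853 and 1697 to 3152. Mean sharing across cultures (39.6%) was 33.5% as deposited, 46.2% at 60% of the bases and 34.1% by fold. Within cultures (57.6%) it was 50.1% as deposited and 46.9% by fold, above the cross-culture mean of the same setting each time.

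Among 73 named genes, 9 of 1322 gene and setting pairs changed sign at a gene called in the main or the alternative setting. Sign changes at genes called in neither were not counted. The 9 were Dlx2 (0.33 with genes up to 50 kb away, 0.056 within 5 kb), Cxcr4 (-0.17) and Bcl11b (-0.000852) with a -log10 q of at least 5, Bcl11b (-0.19) and Celf4 (-0.084) with the lists as deposited, and Nfib (0.38), Gria1 (-0.35) and Spry2 (0.95) when ranked by fold. The median log2 differences of 5 of the 21 lists kept their sign under every setting that could test them, those of MGE interneuron subtype, caudal eminence, oligodendrocyte, vascular and progenitor genes, and the other 16 reached or crossed 0 in at least 1. Region counts do not use the distance to a gene, so those settings gave no other value. Having 2 libraries a culture, peak lists without reads and unlike peak widths limit these results.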
